A study of Homo sapiens with 6 samples.

Results

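The 36 genes described here are the transcription factor ATF4 and genes reported as its targets. They supply serine, one-carbon units and other amino acids, or belong to the stress response that calls for them. They were taken by name from the 60612 genes of the deposited table, which hold 50229 distinct symbols, and all 36 were found. There were 14 biosynthesis genes, 7 transporters and 15 stress regulators, a class that also holds secreted or surface targets such as STC2 and VLDLR. RNA was sequenced from human cells labelled Hep3B, a hepatocellular carcinoma line, in 2 groups of 3 libraries. The siEIF4G2 group received an siRNA (small interfering RNA) that targets EIF4G2, and the siNC group a control siRNA, each at 50 nM. EIF4G2 encodes a relative of the translation initiation scaffold eIF4G that lacks the part binding the cap-binding protein eIF4E. The labels used here give no time of harvest and do not tell whether each replicate had a culture of its own, so the p-values rest on a spread between libraries that may be technical.

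As background, cells short of amino acids or with misfolded protein in the endoplasmic reticulum phosphorylate the initiation factor eIF2, which lowers general translation and raises translation of ATF4 through its upstream open reading frames. ATF4, often paired with C/EBP proteins, then activates genes for serine synthesis, the mitochondrial folate cycle, asparagine synthesis and amino acid uptake, together with regulators that dampen or extend the response. ATF4 is largely controlled at translation, and the values here are RNA levels, so they do not measure ATF4 protein.

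The libraries held 63351653 to 72863628 counts, and mitochondrial genes took 8.03% to 9.02% of them. EIF4G2 itself had 178, 180.0 and 200.1 CPM (counts per 1000000 counts of the library, after TMM scaling) in siEIF4G2 cells, against 1104, 914 and 999 CPM in siNC cells, which was 5.41-fold lower (log2 fold change -2.43, SE 0.09, edgeR adjusted p = 0.000207). Of 15 hepatocyte markers, 13 averaged under 0.5 FPKM, a level corrected for transcript length and library size, and 8 had no count in any library, among them ALB, AFP, APOB and TTR. The other 2 were CPS1, a urea cycle enzyme, at 183 to 211 FPKM in siEIF4G2 cells and 170.0 to 186 FPKM in siNC cells, and CEBPA, a hepatocyte transcription factor, at 1.498 to 1.58 FPKM in siEIF4G2 cells and 1.94 to 2.41 FPKM in siNC cells. Their list summed to 184 to 212 FPKM in siEIF4G2 cells and 173 to 188 FPKM in siNC cells, nearly all of it CPS1. Since most hepatocyte markers were at or near 0 in a labelled liver line, the cells are called here by their treatment alone. The summed level of 6 epithelial markers was 419 to 456 FPKM in siEIF4G2 cells and 548 to 576 FPKM in siNC cells. Most of that difference lay in KRT7, at 79.2 to 89.6 FPKM in siEIF4G2 cells and 159 to 189.7 FPKM in siNC cells, while KRT18 had 171 to 179 FPKM in siEIF4G2 cells and 193 to 197 FPKM in siNC cells. The sum of 8 mesenchymal markers, set mainly by VIM, was 178 to 180.2 FPKM in siEIF4G2 cells and 174 to 181 FPKM in siNC cells. Within it ACTA2 had 0.675 to 0.831 FPKM in siEIF4G2 cells and 3.78 to 4.40 FPKM in siNC cells, and PDGFRB had 1.02 to 1.48 FPKM in siEIF4G2 cells and 2.66 to 3.14 FPKM in siNC cells. COL1A1 was also lower, at 6.46 to 7.11 FPKM in siEIF4G2 cells and 8.37 to 9.77 FPKM in siNC cells, and COL3A1 was higher, at 42.9 to 45.1 FPKM in siEIF4G2 cells and 31.8 to 35.0 FPKM in siNC cells. Endothelial markers summed to 0.440 to 0.550 FPKM in siEIF4G2 cells and 1.35 to 1.42 FPKM in siNC cells, and blood markers to at most 0.152 FPKM in any library, with 3 of 6 at 0 throughout. The part of these marker differences in the results was not tested, and in bulk RNA fewer cells of a type and less RNA per cell cannot be told apart.

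The 36 genes did not move as 1 block: most changed biosynthesis genes rose in siEIF4G2 cells, while most changed stress regulators fell. A gene was tested if it reached 0.5 FPKM in at least 3 libraries, and it was called at an edgeR adjusted p of at most 0.05 over all 13748 genes tested. By this rule 35 of the 36 genes were tested, 9 rose, 7 fell and 19 were not called. Over all tested genes 33.4% were called, 15.9% higher and 17.6% lower, so the share of called members (45.7%) has to be read against a large background. Members were also chosen with earlier results of these data known, so the shares describe them and test nothing. The groups did not overlap for 22 of the 35 members, against 50.6% of all tested genes. The median log2 fold change was 0.03 over the members and 0.01 over all tested genes. All 16 member calls were under 2-fold, and their median size was 0.31 on the log2 scale, against 0.47 for all called genes. The member nearest the threshold inside it was PSPH (edgeR adjusted p = 0.0492), and the nearest outside was PYCR1 (edgeR adjusted p = 0.0586).

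**Figure D1:**
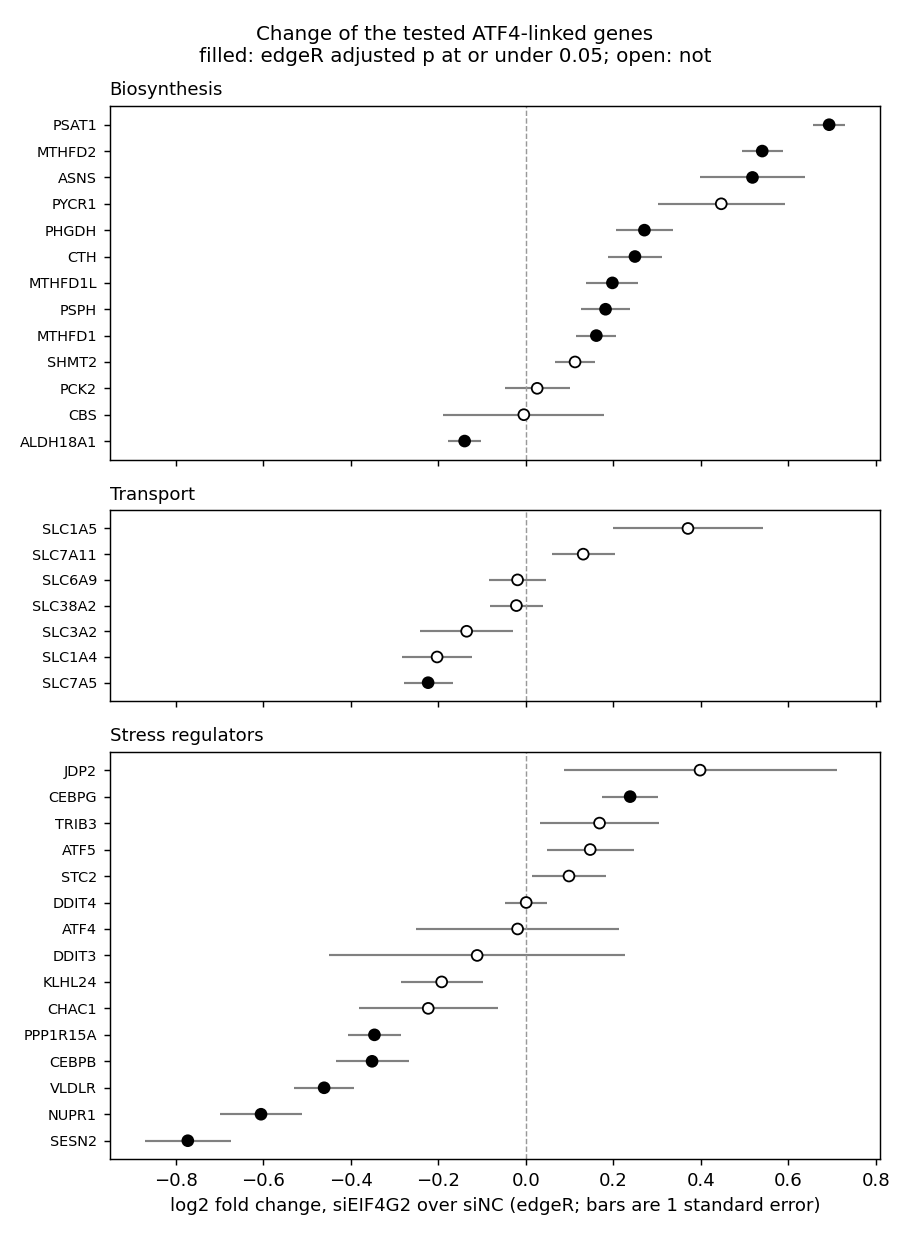
Log2 fold change, siEIF4G2 over siNC, of the 35 tested genes by class, with the standard error as bars and called genes as filled points. The biosynthesis genes lie between -0.14 and 0.69 and the stress regulators between -0.77 and 0.40.

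The levels of the 36 genes, compared per transcript length in FPKM, spanned a wide range in both groups. SLC7A5, the light chain of the leucine and glutamine exchanger LAT1, was the highest at 267 ± 9.10 FPKM in siEIF4G2 cells and 306 ± 14.2 FPKM in siNC cells (SD, n = 3 each). DDIT4, an inhibitor of mTORC1 signalling, came next with means of 153 FPKM in siEIF4G2 cells and 151 FPKM in siNC cells. SLC38A2, a sodium-coupled neutral amino acid transporter, had means of 90.1 FPKM in siEIF4G2 cells and 89.7 FPKM in siNC cells. Among biosynthesis genes in siEIF4G2 cells the order was led by PSAT1 with 55.3 FPKM and SHMT2 with 47.6 FPKM, whereas in siNC cells SHMT2, with 43.2 FPKM, lay above PSAT1, with 33.6 FPKM. The lowest tested member was CHAC1, which degrades glutathione, at means of 1.37 FPKM in siEIF4G2 cells and 1.58 FPKM in siNC cells. ALDH1L2, the mitochondrial formyltetrahydrofolate dehydrogenase, was the member left untested, at means of 0.0151 FPKM in siEIF4G2 cells and 0.0181 FPKM in siNC cells.

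**Figure D2:**
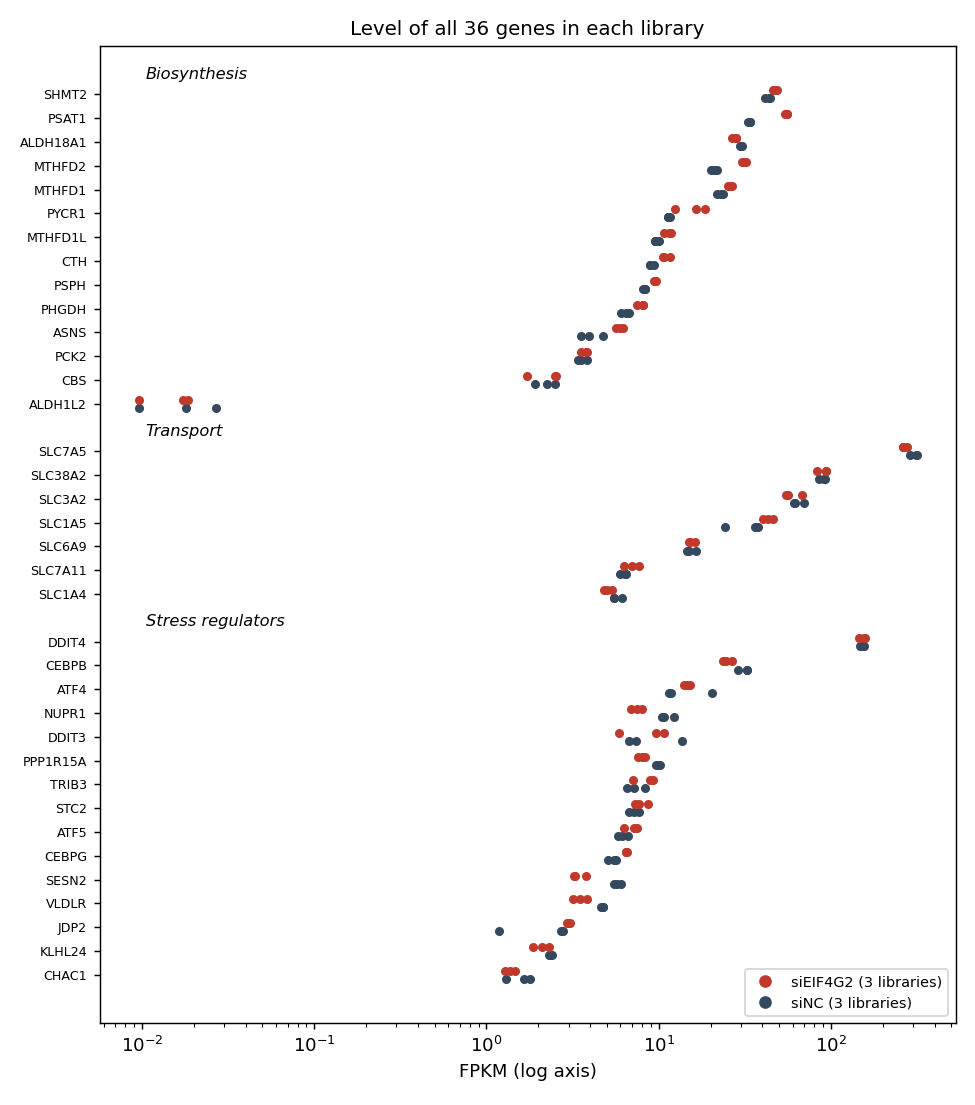
FPKM of the 36 genes in each library on a log axis, grouped by class, siEIF4G2 beside siNC. SLC7A5 is the highest in every library and ALDH1L2 lies far under the 0.5 FPKM minimum.

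The biosynthesis class leaned upward in siEIF4G2 cells. Of 13 tested genes 8 rose (61.5%, against 15.9% of all tested genes), 1 fell and 4 were not called. The median log2 fold change was 0.20, and 11 of the 13 were positive. The risers covered all 3 enzymes of serine synthesis, 3 enzymes of the folate cycle, asparagine synthesis and cysteine synthesis.

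Serine is made from a glycolytic intermediate by PHGDH, PSAT1 and PSPH in turn. PSAT1, the aminotransferase of the second step (ENSG00000135069, GRCh38 chr9:78297125-78330093, plus strand), had 145, 144 and 145 CPM in siEIF4G2 cells, against 90.5, 88.2 and 89.6 CPM in siNC cells. Each siEIF4G2 library lay well above each siNC library, and the libraries within a group were nearly alike. PSAT1 rose 1.62-fold (log2 fold change 0.69, SE 0.04, edgeR adjusted p = 0.000263), the largest rise among the 35 tested members, and it stayed called whichever library was left out. PHGDH, the dehydrogenase of the first step (chr1:119648411-119744218, plus strand), had 87.2, 89.9 and 80.8 CPM in siEIF4G2 cells, against 74.9, 71.6 and 67.1 CPM in siNC cells. The groups did not overlap, but the nearest libraries were closer together than those of PSAT1. PHGDH rose 1.21-fold (log2 fold change 0.27, SE 0.07, edgeR adjusted p = 0.0225). PSPH, the phosphatase of the last step (chr7:56011051-56051467, minus strand), had 30.4, 32.4 and 31.0 CPM in siEIF4G2 cells, against 27.0, 27.7 and 27.9 CPM in siNC cells. It rose by 0.18 on the log2 scale (SE 0.06, edgeR adjusted p = 0.0492), with no overlap between the groups. PSPH is uncertain, because a near-identical copy, PSPHP1, averaged 408 counts per library beside 2008 for PSPH, and no source used here tells how shared reads were split.

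The unequal rise along the pathway can be read as a ratio of levels within a library. PSAT1 over PHGDH was 7.03 ± 0.419 in siEIF4G2 cells and 5.25 ± 0.284 in siNC cells (FPKM ratio, SD, n = 3 each, two-sided exact permutation p = 0.1). PSAT1 over PSPH was 5.81 ± 0.213 in siEIF4G2 cells and 4.07 ± 0.115 in siNC cells (SD, n = 3 each, exact permutation p = 0.1). The groups did not overlap for either ratio, and 0.1 is the smallest p that 3 against 3 libraries allow. These pairs, and the pairs of folate enzymes, were chosen after their values were seen.

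The folate cycle turns serine into glycine and one-carbon units, chiefly in mitochondria. MTHFD2, the mitochondrial methylenetetrahydrofolate dehydrogenase (ENSG00000065911, chr2:74198610-74215298, plus strand), had 182, 177 and 174 CPM in siEIF4G2 cells, against 127, 118 and 122 CPM in siNC cells. All siEIF4G2 libraries stood clear of all siNC libraries. MTHFD2 rose 1.45-fold (log2 fold change 0.54, SE 0.05, edgeR adjusted p = 0.000779) and stayed called whichever library was left out. SHMT2, the mitochondrial hydroxymethyltransferase that feeds it (chr12:57229573-57234935, plus strand), had 259.6, 269 and 249 CPM in siEIF4G2 cells, against 232, 246 and 241 CPM in siNC cells. The groups came close without overlapping, and SHMT2 was not called (log2 fold change 0.11, SE 0.05, edgeR adjusted p = 0.111). SHMT2 overlaps NDUFA4L2 on the opposite strand, and without stated use of strand their shared reads cannot be told apart. MTHFD1L, the mitochondrial formyltetrahydrofolate synthetase, averaged 67.6 ± 3.71 CPM in siEIF4G2 cells and 59.0 ± 1.99 CPM in siNC cells (SD, n = 3 each) and rose by 0.20 on the log2 scale (SE 0.06, edgeR adjusted p = 0.0460). MTHFD1, the cytosolic enzyme of the same cycle, averaged 377 ± 10.8 CPM in siEIF4G2 cells and 337 ± 13.2 CPM in siNC cells (SD, n = 3 each) and rose by 0.16 (SE 0.05, edgeR adjusted p = 0.0395). MTHFD1 overlaps ZBTB25 on the opposite strand. Relative to its neighbours MTHFD2 stood higher in siEIF4G2 cells: MTHFD2 over SHMT2 was 0.655 ± 0.0226 in siEIF4G2 cells and 0.487 ± 0.0338 in siNC cells (FPKM ratio, SD, n = 3 each, exact permutation p = 0.1). MTHFD2 over MTHFD1L was 2.75 ± 0.111 in siEIF4G2 cells and 2.16 ± 0.0417 in siNC cells (SD, n = 3 each, exact permutation p = 0.1).

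ASNS makes asparagine from aspartate and glutamine and is a classic ATF4 target (ENSG00000070669, chr7:97851677-97872542, minus strand). It had 32.5, 37.0 and 34.6 CPM in siEIF4G2 cells, against 28.2, 21.0 and 23.4 CPM in siNC cells. The groups did not overlap, with siNC replicate 1 the nearest to the siEIF4G2 libraries. ASNS rose 1.43-fold (log2 fold change 0.52, SE 0.12, edgeR adjusted p = 0.0202). CTH, which makes cysteine from cystathionine, averaged 31.4 ± 1.29 CPM in siEIF4G2 cells and 26.4 ± 0.865 CPM in siNC cells (SD, n = 3 each) and rose by 0.25 (SE 0.06, edgeR adjusted p = 0.0244). CBS, the step before CTH, had a log2 difference of 0.00 (SE 0.18, edgeR adjusted p = 0.989), and its near-identical copy CBSL makes its count uncertain.

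Proline synthesis split between its enzymes. ALDH18A1, which starts the route from glutamate, fell by 0.14 on the log2 scale to 123 ± 1.86 CPM in siEIF4G2 cells, against 136 ± 1.63 CPM in siNC cells (SD, n = 3 each; SE 0.04, edgeR adjusted p = 0.0329). PYCR1, the mitochondrial reductase of the last step (chr17:81932384-81941079, minus strand), had 63.1, 57.5 and 42.4 CPM in siEIF4G2 cells, against 41.0, 39.2 and 39.3 CPM in siNC cells. The siNC libraries were tight, and siEIF4G2 replicate 3 lay much nearer to them than the other siEIF4G2 libraries did. PYCR1 was not called (log2 fold change 0.45, SE 0.14, edgeR adjusted p = 0.0586), but without siEIF4G2 replicate 3 the log2 fold change was 0.60 (edgeR adjusted p = 0.00562). With any other library left out it was 0.33 to 0.47, with edgeR adjusted p values of 0.120 to 0.140. PCK2, the mitochondrial phosphoenolpyruvate carboxykinase, had a log2 difference of 0.03 (SE 0.07, edgeR adjusted p = 0.816), with overlapping groups.

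Most of the small biosynthesis calls were lost in some or all fits that left 1 library out. The call of ASNS was lost without siEIF4G2 replicate 2 (edgeR adjusted p = 0.0580), siEIF4G2 replicate 3 (0.0558) or siNC replicate 3 (0.0610). That of PHGDH was lost without siEIF4G2 replicate 1 (edgeR adjusted p = 0.0634) or 2 (0.0577), or siNC replicate 2 (0.0617) or 3 (0.0593). That of CTH was lost without siEIF4G2 replicate 3 (edgeR adjusted p = 0.0678) or siNC replicate 1 (0.0755) or 2 (0.0791). MTHFD1 kept its call only without siEIF4G2 replicate 1, and MTHFD1L only without siEIF4G2 replicate 3. Without the others, MTHFD1 had edgeR adjusted p values of 0.0857 and 0.103 (siEIF4G2 replicates 2 and 3) and 0.0837, 0.109 and 0.0558 (siNC replicates 1, 2 and 3). MTHFD1L had edgeR adjusted p values of 0.118 and 0.105 (siEIF4G2 replicates 1 and 2) and 0.0688, 0.124 and 0.112 (siNC replicates 1, 2 and 3). PSPH and ALDH18A1 lost their calls whichever library was left out, with edgeR adjusted p values of 0.0745 to 0.132 for PSPH and 0.0647 to 0.0937 for ALDH18A1. Their log2 fold changes moved little in these fits, at 0.16 to 0.21 for PSPH and -0.15 to -0.13 for ALDH18A1. The count of biosynthesis genes that rose was accordingly 3 to 5 with 1 library left out, against 8 with all 6 libraries. The count that fell was 0 in each fit with 1 library left out. Calls also dropped over all tested genes in these fits, to 1567 to 1891 higher and 1785 to 2243 lower, against 2182 and 2415 with all 6 libraries.

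**Figure D3:**
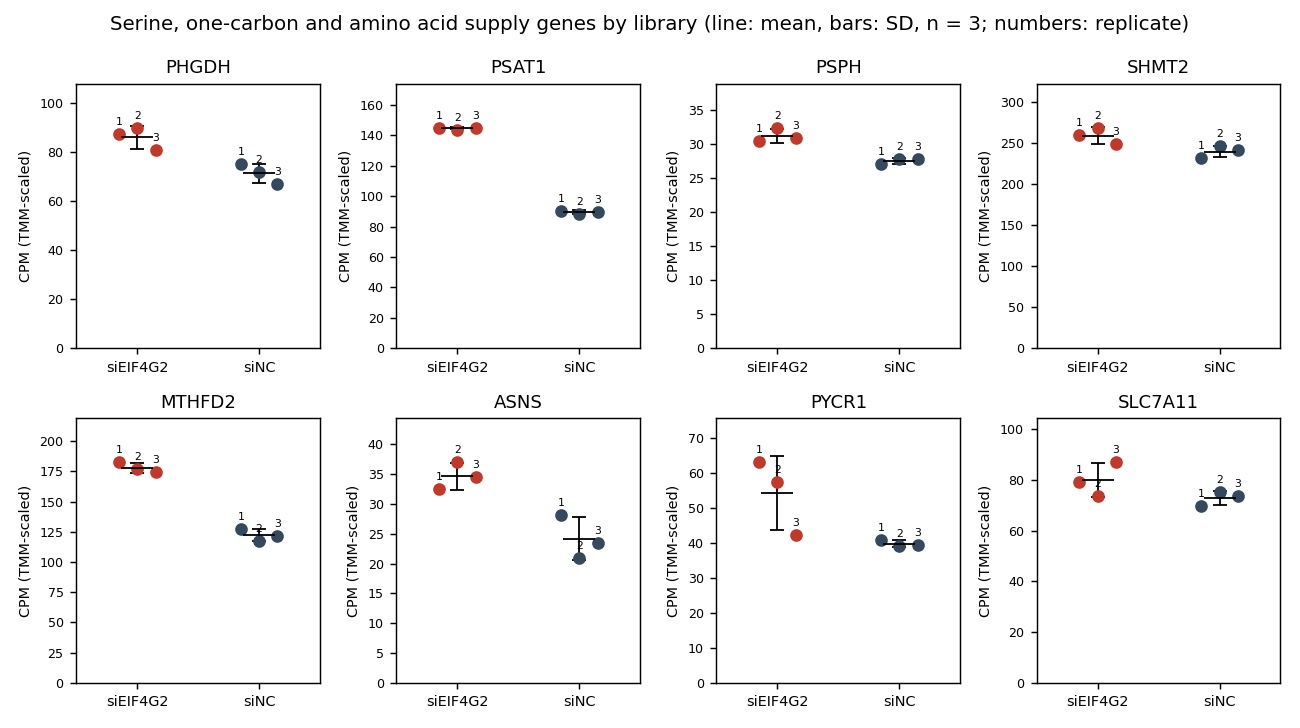
CPM in each library for 8 supply genes, siEIF4G2 left of siNC, with the group mean as a line and bars of 1 SD (n = 3). The groups are widely apart for PSAT1 and MTHFD2, siEIF4G2 replicate 3 of PYCR1 lies near the siNC libraries, and the groups overlap for SLC7A11.

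Promoters were searched for the 8-letter pattern TGATGNAA, the core of the composite C/EBP-ATF element through which ATF4 is known to act, on both strands from 250 bases before to 50 bases after each start in RefSeq on GRCh38.p14. Of the 36 genes 30 had a sequence in that table, and 8 of the 30 (26.7%) held the pattern, against 4.46% of all 27305 symbols in the table. The genes were chosen as reported ATF4 targets, so these shares are not independent of that choice and test nothing. The pattern was in 3 of the 8 matched genes that rose, in 0 of the 6 that fell and in 5 of the 16 that were not called. The matches are shown with 10 bases on either side, written along the gene's strand, with the pattern in capitals. The first 3 belong to genes that rose and were printed for that reason, and the next 4, from genes that were not called, were added after the values were seen so that the same letters can be compared across outcomes.
ASNS: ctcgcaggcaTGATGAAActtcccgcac
CEBPG: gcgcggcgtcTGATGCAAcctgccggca
MTHFD1L: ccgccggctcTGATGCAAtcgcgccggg
SLC1A5: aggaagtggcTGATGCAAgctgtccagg
JDP2: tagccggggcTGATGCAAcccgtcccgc
SLC1A4: cggctcccgtTTGCATCAtctccagccg
CHAC1: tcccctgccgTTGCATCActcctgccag

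The ASNS stretch is chr7:97872459-97872486 on the minus strand, with the pattern 68 to 61 bases before the start. The CEBPG stretch is chr19:33374061-33374088 on the plus strand, with the pattern 42 to 35 bases before the start, and that of MTHFD1L is chr6:150866347-150866374 on the plus strand, where RefSeq lists 3 starts. In SLC1A4 (chr2:64989382-64989409) and CHAC1 (chr15:40953252-40953279), both plus-strand genes, the pattern lies on the other strand and appears as its reverse complement. SLC1A5 (chr19:46784894-46784921, minus strand) and JDP2 (chr14:75427996-75428023, plus strand) carry the same 8 letters as CEBPG. SLC3A2 held the eighth match. PSAT1 and MTHFD2, the strongest risers, had no match in this window, and a match or its absence is a description of these letters only.

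None of the 7 transporters rose, against 15.9% of all tested genes, 1 fell (14.3%, against 17.6%) and 6 were not called. The median log2 fold change was -0.02. SLC7A5 had 1465, 1595 and 1465 CPM in siEIF4G2 cells, against 1812, 1807 and 1662 CPM in siNC cells. Every siEIF4G2 library lay under every siNC library. SLC7A5 fell by 0.22 on the log2 scale (SE 0.06, edgeR adjusted p = 0.0263). The call was lost without siEIF4G2 replicate 1 (edgeR adjusted p = 0.0796) or 3 (0.0785), or siNC replicate 1 (0.0880) or 2 (0.0882). Its partner SLC3A2, the heavy chain of LAT1 and of the cystine exchanger, overlapped between the groups and was not called (log2 fold change -0.13, SE 0.11, edgeR adjusted p = 0.376).

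SLC7A11, the light chain of the cystine-glutamate exchanger and a widely used ATF4 readout (chr4:138164097-138242349, minus strand), had 79.1, 73.6 and 86.8 CPM in siEIF4G2 cells, against 69.8, 75.2 and 73.7 CPM in siNC cells. The groups overlapped through siEIF4G2 replicate 2, and SLC7A11 was not called (log2 fold change 0.13, SE 0.07, edgeR adjusted p = 0.211). SLC1A5, the neutral amino acid exchanger ASCT2, had 169, 185 and 158 CPM in siEIF4G2 cells, against 97.9, 146 and 152 CPM in siNC cells. The siNC replicate 1 library was low and the others were close to the siEIF4G2 values: the log2 fold change was 0.37 (SE 0.17, edgeR adjusted p = 0.146) with all libraries and 0.20 (edgeR adjusted p = 0.135) without it. SLC1A4, a serine and alanine exchanger, had a log2 difference of -0.20 (SE 0.08, edgeR adjusted p = 0.101) with groups that did not overlap. SLC38A2 had a log2 difference of -0.02 (SE 0.06, edgeR adjusted p = 0.818), and SLC6A9, a glycine transporter, also had one of -0.02 (SE 0.07, edgeR adjusted p = 0.854), both with overlapping groups.

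Among called genes the stress regulators leaned the other way from biosynthesis. Of 15 tested genes 5 fell (33.3%, against 17.6% of all tested genes), 1 rose and 9 were not called. The median log2 fold change was -0.11, and signs were mixed, with 9 negative and 6 positive. The falls were NUPR1 and CEBPB among 7 transcription regulators and SESN2, PPP1R15A and VLDLR among 8 other targets.

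ATF4 itself (ENSG00000128272, chr22:39519672-39522683, plus strand) had 48.3, 51.3 and 51.8 CPM in siEIF4G2 cells, against 71.9, 41.3 and 40.2 CPM in siNC cells. One control library, siNC replicate 1, lay above all siEIF4G2 libraries and the other 2 controls lay under them. ATF4 was not called (log2 fold change -0.02, SE 0.23, edgeR adjusted p = 0.959). Without siNC replicate 1 it was higher in siEIF4G2 cells, with a log2 fold change of 0.31 (edgeR adjusted p = 0.0273), so whether it was called turned on that library. The control libraries were similarly uneven for DDIT3, the pro-apoptotic factor CHOP, which had 16.4, 9.33 and 14.8 CPM in siEIF4G2 cells, against 10.6, 11.6 and 21.6 CPM in siNC cells. DDIT3 overlapped between the groups and was not called (log2 fold change -0.11, SE 0.34, edgeR adjusted p = 0.831), and it shares its locus with MARS1 and MBD6 on the opposite strand.

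NUPR1, a small stress-induced chromatin protein (ENSG00000176046, chr16:28532708-28538974, minus strand), had 44.5, 53.1 and 48.7 CPM in siEIF4G2 cells, against 69.4, 71.3 and 81.8 CPM in siNC cells. All siEIF4G2 libraries were under all siNC libraries, and NUPR1 was 1.52-fold lower (log2 fold change -0.60, SE 0.09, edgeR adjusted p = 0.00493). The C/EBP partners of ATF4 parted. CEBPB fell by 0.35 to 54.5 ± 4.33 CPM in siEIF4G2 cells, against 69.4 ± 5.09 CPM in siNC cells (SD, n = 3 each; SE 0.08, edgeR adjusted p = 0.0219). CEBPG rose by 0.24 to 31.2 ± 0.354 CPM in siEIF4G2 cells, against 26.5 ± 1.48 CPM in siNC cells (SD, n = 3 each; SE 0.06, edgeR adjusted p = 0.0319). The CEBPB call was lost without siEIF4G2 replicate 1 (edgeR adjusted p = 0.0666) or 3 (0.0664), or siNC replicate 1 (0.0705) or 2 (0.0698), and the CEBPG call whichever library was left out (0.0505 to 0.0865). ATF5, a close relative of ATF4, had a log2 difference of 0.15 (SE 0.10, edgeR adjusted p = 0.299) with overlapping groups, in a locus shared with NUP62. JDP2, a repressor that binds AP-1 sites, had 22.6, 22.5 and 21.7 CPM in siEIF4G2 cells, against 20.7, 9.02 and 20.9 CPM in siNC cells. It was not called (log2 fold change 0.40, SE 0.31, edgeR adjusted p = 0.371), and without the low siNC replicate 2 its log2 fold change was 0.10.

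SESN2, a leucine-sensing inhibitor of mTORC1 (ENSG00000130766, chr1:28259518-28282491, plus strand), had 13.3, 15.8 and 13.1 CPM in siEIF4G2 cells, against 25.4, 23.0 and 23.8 CPM in siNC cells. The groups were far apart, and SESN2 was 1.71-fold lower (log2 fold change -0.77, SE 0.10, edgeR adjusted p = 0.00269), the largest change of any tested member in either direction. VLDLR, a lipoprotein receptor that ATF4 is reported to induce, had 38.3, 36.2 and 42.1 CPM in siEIF4G2 cells, against 52.5, 54.1 and 53.9 CPM in siNC cells. It was 1.38-fold lower with no overlap (log2 fold change -0.46, SE 0.07, edgeR adjusted p = 0.00437). PPP1R15A, also called GADD34, is the phosphatase subunit that reverses eIF2 phosphorylation. It averaged 28.9 ± 1.32 CPM in siEIF4G2 cells and 36.7 ± 0.855 CPM in siNC cells (SD, n = 3 each), 1.27-fold lower with no overlap (log2 fold change -0.35, SE 0.06, edgeR adjusted p = 0.00732). NUPR1, SESN2, VLDLR and PPP1R15A each stayed called whichever library was left out.

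The other 5 targets of this class were not called. DDIT4 had a log2 difference of 0.00 (SE 0.05, edgeR adjusted p = 0.988). TRIB3, a pseudokinase that restrains ATF4, had one of 0.17 (SE 0.14, edgeR adjusted p = 0.386), and CHAC1 one of -0.22 (SE 0.16, edgeR adjusted p = 0.327). The secreted glycoprotein STC2 had a log2 difference of 0.10 (SE 0.08, edgeR adjusted p = 0.412). The groups overlapped for these 4 genes. KLHL24, an adaptor of a ubiquitin ligase, had a log2 difference of -0.19 (SE 0.09, edgeR adjusted p = 0.167) without overlap.

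**Figure D4:**
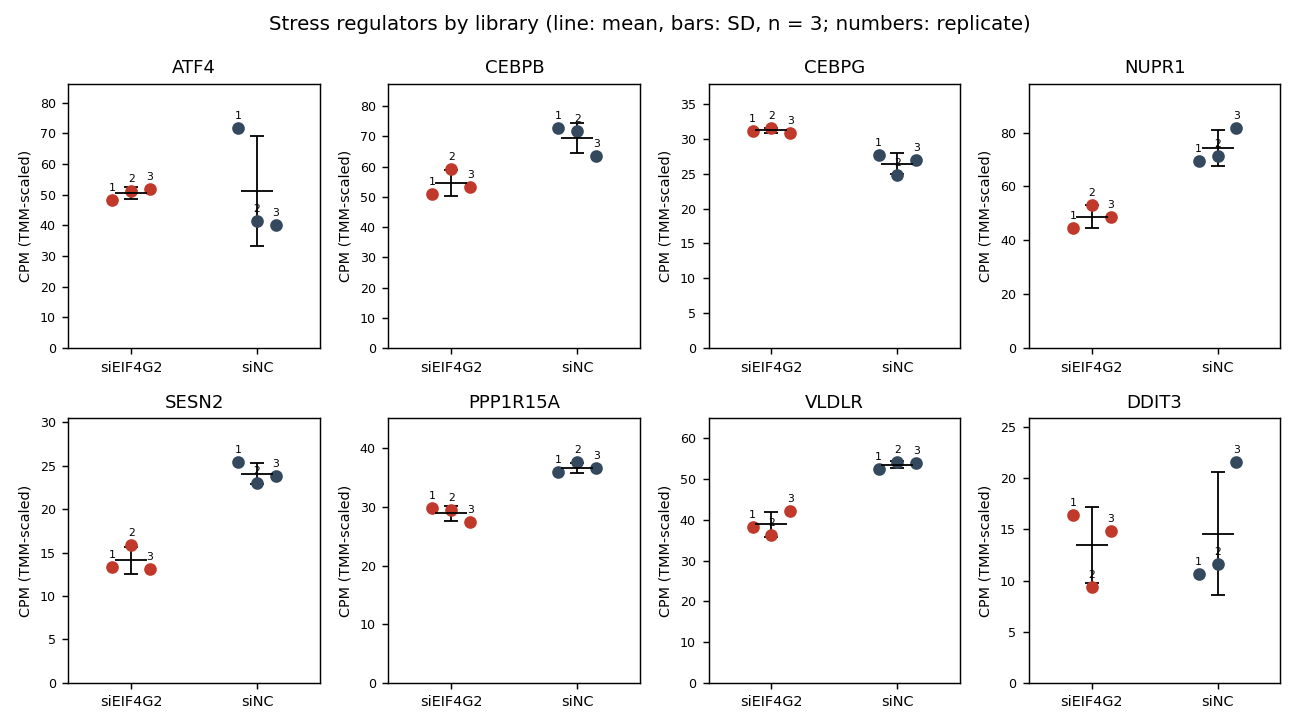
CPM in each library for 8 stress regulators, siEIF4G2 left of siNC, with the group mean as a line and bars of 1 SD (n = 3). The groups are apart for NUPR1, SESN2, VLDLR and PPP1R15A, while for ATF4 the siNC replicate 1 library (71.9 CPM) lies above the other 5 libraries.

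Wider lists of 84 other genes of these pathways were chosen by role, but with earlier results of these data known. Their shares are therefore a description and not a test. They gave 73 tested genes, of which 10 rose (13.7%), 24 fell (32.9%) and 39 were not called. The background over all tested genes was 15.9% higher and 17.6% lower, and the median log2 fold change was -0.06 for the wider lists. Among other one-carbon and glycine genes 4 of 12 rose (33.3%), 1 fell (8.33%) and 7 were not called. MTHFD2L, the paralogue of MTHFD2, averaged 8.75 ± 0.357 CPM in siEIF4G2 cells and 5.54 ± 0.126 CPM in siNC cells and rose by 0.66 (SE 0.09, edgeR adjusted p = 0.00315). MTHFD2L lay near the 0.5 FPKM minimum, at 0.722 to 0.792 FPKM in siEIF4G2 cells and 0.455 to 0.470 FPKM in siNC cells. It was thus tested, and counted among the rises, only through the group where it was higher. TYMS, which uses a folate one-carbon unit to make thymidylate, had 239, 219 and 259 CPM in siEIF4G2 cells, against 147, 174 and 150.2 CPM in siNC cells, and rose by 0.61 (SE 0.09, edgeR adjusted p = 0.00444). Errors are SD over 3 libraries in each group here and in the lists that follow.

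The next list held 17 genes: those for eIF2, its kinases, its exchange factor and a phosphatase subunit, and also GCN1, IMPACT, OMA1 and DELE1. Of the 17, 5 fell, 2 rose and 10 were not called, and GCN1, IMPACT, OMA1 and DELE1 were among those not called. The shares were 29.4% lower and 11.8% higher, against 17.6% and 15.9% of all tested genes. EIF2AK2, the double-stranded RNA kinase PKR, fell by 0.87 to 115 ± 10.6 CPM in siEIF4G2 cells, against 209.8 ± 4.53 CPM in siNC cells (SE 0.07, edgeR adjusted p = 0.000708). EIF2S1, the eIF2 subunit that these kinases phosphorylate, fell by 0.36 to 129 ± 2.75 CPM in siEIF4G2 cells, against 165 ± 6.74 CPM in siNC cells (SE 0.05, edgeR adjusted p = 0.00287). EIF2AK3, the endoplasmic reticulum kinase PERK, fell by 0.41 to 39.7 ± 0.781 CPM in siEIF4G2 cells, against 53.0 ± 4.10 CPM in siNC cells (SE 0.07, edgeR adjusted p = 0.00635).

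Other amino acid metabolism genes gave 6 falls (42.9%, against 17.6% of all tested genes) and 1 rise (7.14%, against 15.9%) among 14. ASS1, the argininosuccinate synthase, fell by 0.42 to 336 ± 14.5 CPM in siEIF4G2 cells, against 451 ± 5.57 CPM in siNC cells (SE 0.04, edgeR adjusted p = 0.00137). BCAT1, the cytosolic branched-chain aminotransferase, was the rise, at 212 ± 38.3 CPM in siEIF4G2 cells and 127 ± 4.66 CPM in siNC cells (log2 fold change 0.73, SE 0.13, edgeR adjusted p = 0.00737). PRODH, which breaks proline down, had 3.86, 4.92 and 3.35 CPM in siEIF4G2 cells, against 7.20, 6.94 and 8.16 CPM in siNC cells, and fell by 0.88 (SE 0.17, edgeR adjusted p = 0.0106). PRODH lay near the 0.5 FPKM minimum, at 0.319 to 0.457 FPKM in siEIF4G2 cells and 0.649 to 0.765 FPKM in siNC cells. It was thus tested, and counted among the falls, only through the siNC group, where it was higher.

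Among 13 tested transporters outside the 7 named above, 6 fell (46.2%, against 17.6% of all tested genes), 2 rose (15.4%, against 15.9%) and 5 were not called. SLC7A2, a cationic amino acid transporter, had 10.9, 9.06 and 11.4 CPM in siEIF4G2 cells, against 2.16, 1.97 and 1.95 CPM in siNC cells, 5.15-fold higher (log2 fold change 2.37, SE 0.13, edgeR adjusted p = 0.000291). SLC7A2 had 0.948 to 1.23 FPKM in siEIF4G2 cells and 0.203 to 0.224 FPKM in siNC cells. It thus passed the 0.5 FPKM minimum only through the group where it was higher, and so did its place among the rises. SLC38A3, a glutamine transporter, fell by 0.75 to 7.09 ± 0.898 CPM in siEIF4G2 cells, against 11.9 ± 0.737 CPM in siNC cells (SE 0.12, edgeR adjusted p = 0.00643). SLC7A6, the light chain of a cationic and neutral amino acid exchanger, fell by 0.46 to 58.2 ± 2.31 CPM in siEIF4G2 cells, against 80.0 ± 7.88 CPM in siNC cells (SE 0.08, edgeR adjusted p = 0.00849).

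Among 17 other genes reported as ATF4 targets 6 fell (35.3%, against 17.6% of all tested genes), 1 rose (5.88%, against 15.9%) and 10 were not called. GDF15, a cytokine secreted under stress, had 19.7, 23.4 and 18.2 CPM in siEIF4G2 cells, against 223, 221 and 204 CPM in siNC cells. It was 10.6-fold lower (log2 fold change -3.40, SE 0.11, edgeR adjusted p = 0.000207), far beyond any of the 36 members. The aminoacyl-tRNA synthetase WARS1 fell by 0.77 to 134 ± 2.32 CPM in siEIF4G2 cells, against 229 ± 14.2 CPM in siNC cells (SE 0.06, edgeR adjusted p = 0.000476). XPOT, which exports tRNA from the nucleus, was the rise, at 264 ± 11.9 CPM in siEIF4G2 cells and 199.8 ± 4.55 CPM in siNC cells (log2 fold change 0.40, SE 0.05, edgeR adjusted p = 0.00203). Without siNC replicate 2 the number of wider-list genes that fell was 15, against 24 with all libraries.

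**Figure D5:**
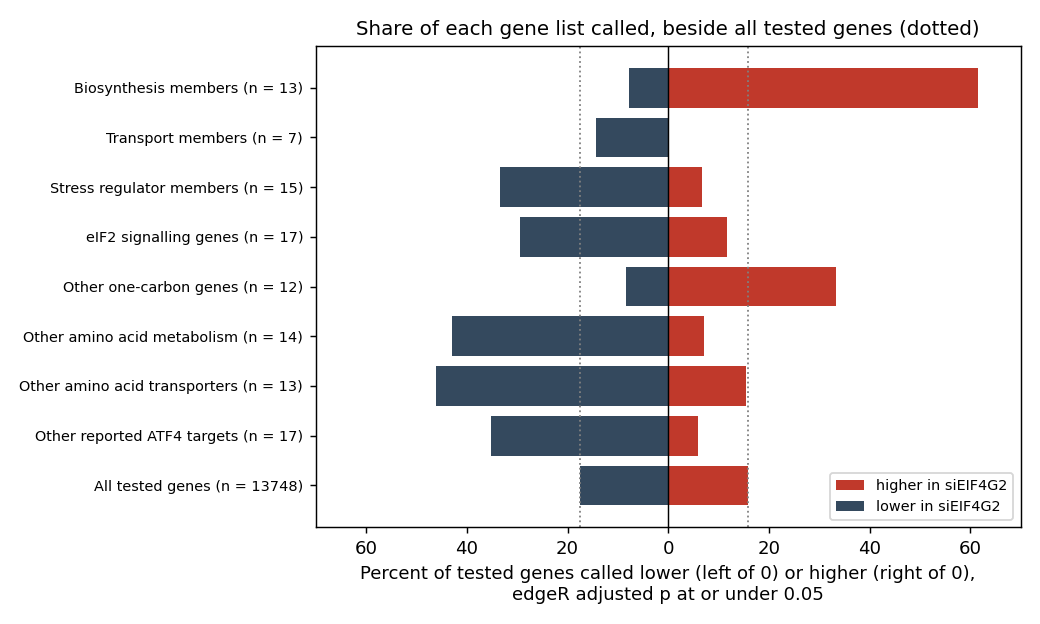
Share of tested genes called higher and lower in siEIF4G2 cells for each list, with dotted lines at the shares over all 13748 tested genes. The biosynthesis genes have the highest share called higher (61.5%), and the other transporters have the highest share called lower.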

How the data were processed

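Poly(A) RNA from 6 libraries was sequenced in pairs, per the labels' protocols, which also speak of an adipose type while other labels give liver and Hep3B. HISAT2 2.0 and StringTie 1.3.0 were used in roles not stated, per the submitters' processing notes. Not given in the sources used here are the genome build, the annotation and whether counting used strand. The authors deposited estimated counts, already rounded to whole numbers, and FPKM values per gene, per the file headers. Gene intervals overlapped GENCODE 29 on GRCh38 for 99.9% of shared identifiers, which is the build printed. All columns of sample values were used.

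Among rows with 1 symbol the row with the highest mean FPKM was kept, then genes with 0.5 FPKM in at least 3 libraries. CPM are counts over each library's total times its TMM factor. The test was edgeR's quasi-likelihood test (4.0.16, R 4.3.3) with TMM factors (0.985 to 1.02) and group as the sole term, two-sided, with Benjamini-Hochberg adjustment over 13748 genes. SE is the absolute log2 fold change over the square root of F. A count of 3 equals 0.0412 to 0.0474 per 1000000 counts before TMM scaling. Alternatives used DESeq2 1.42.0 and limma 3.58.1, and scripts were tested on simulated data. Other tools were Python 3.11.15, numpy 2.4.6, pandas 2.3.3, scipy 1.17.1 and matplotlib 3.10.9.

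Members and lists were chosen with earlier results of these data known. Values per library are given for called members with an absolute log2 fold change of at least 0.5, for ATF4, PHGDH, PSAT1, ASNS, SHMT2 and SLC7A11, and for the members nearest the threshold. In each wider list the genes with the 3 smallest p-values are named, except 1 that is not reported here, and promoter stretches are given for called members with the pattern. Values per library of other genes were added after they were seen.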

Additional observations from a re-analysis of the deposited data

How the results depend on the processing

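The 16 called members kept their direction in all 15 alternatives run, and 6 of them (PSAT1, MTHFD2, NUPR1, SESN2, PPP1R15A and VLDLR) were called in each. SHMT2, PYCR1 and ATF4 were called in at least 1 alternative only. Members called higher numbered 5 with no filter on low values, 4 with the replicate block and 3 to 5 with 1 library left out. Members called lower numbered 4 to 6 with 1 library left out. Biosynthesis genes called higher numbered 5 with no filter, 4 with the replicate block and 3 to 5 with 1 library left out, and those called lower 0 with limma at either pseudocount (1 or 0.1), no filter, the replicate block and any library left out. Transporters called lower numbered 0 with no filter and 0 to 1 with 1 library left out. Stress regulators called higher numbered 0 with no filter or the replicate block and 0 to 1 with 1 library left out, and wider-list genes called lower 15 to 22. Correlations of deviations from the group means were small for libraries with the same replicate number (0.0035, 0.034 and 0.052) and with different numbers (-0.078 to 0.044). Small correlations cannot settle whether the replicate numbers pair the libraries. Under the replicate block 1726 genes were called higher and 2010 lower, against 2182 and 2415 without it. With 1 library left out, 1567 to 1891 genes were called higher and 1785 to 2243 lower. Signs turned only for members that were not called. CBS was at 0.0034 with upper-quartile scaling, 0.0093 and 0.0089 with limma at pseudocounts 1 and 0.1, 0.0023 with no filter, 0.0016 with summed rows and -0.10 to 0.17 with 1 library left out. ATF4 was at 0.055 and 0.061 with limma, 0.037 with the block and -0.16 to 0.31 with 1 library left out. SLC38A2 was at 0.0048 and 0.0048 with limma, and SLC6A9 at 0.0086 and 0.0092. With 1 library left out, PCK2 lay at -0.0047 to 0.075, SLC38A2 at -0.061 to 0.026, SLC6A9 at -0.052 to 0.038, DDIT3 at -0.29 to 0.29 and DDIT4 at -0.020 to 0.039. The cause of these shifts was not tested. CHAC1 had no value with a 2 FPKM minimum.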
